A study of Mus musculus with 6 samples.

Results

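Nicotinic acetylcholine receptors are ion channels opened by acetylcholine and by nicotine, and the 9 genes described here encode their neuronal subunits. They were taken by symbol (Chrna2, Chrna3, Chrna4, Chrna5, Chrna6, Chrna7, Chrnb2, Chrnb3 and Chrnb4) from a table of 24532 mouse genes, where all 9 had reads in every library. RNA came from the core of the nucleus accumbens, a ventral striatal region known for its role in reward. All mice were wild-type males, called adolescent and given as postnatal days 35 to 55, and no strain was named. Per the labels they went through contextual fear conditioning, 1 day of injections, extinction of the context fear, and a drinking period of 27 days with ethanol offered on alternate days. The accumbens was collected 24 h later. The drinking period of 27 days is longer than the span from day 35 to day 55, so the age at collection is not clear. The injections given to the ethanol mice were 6 in 6 h, intraperitoneal, of 20% v/v ethanol in saline, starting with a dose of 1.8 g/kg and continuing with doses of 1.2 g/kg. The 3 control and 3 ethanol libraries are told apart by their titles alone, since the treatment field reads ethanol exposure for all 6, and no control injection is described. The drinking period is given for controls too. No label ties a library to a single animal, so the p-values reflect only how these libraries vary, which may be technical.

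Each receptor is a pentamer around a central pore. The alpha subunits carry the main face of the acetylcholine site, and Chrna5 and Chrnb3 encode accessory subunits that join receptors built from the others. Chrna4 and Chrnb2 encode the pair that forms most of the high-affinity nicotine binding sites of the brain, and Chrna7 encodes a subunit that can form receptors of its own kind alone. In the accumbens, receptors that hold the products of Chrna6 and Chrnb3 sit on the terminals of dopamine axons, whose cell bodies lie in the midbrain. The local source of acetylcholine is the cholinergic interneuron. In bulk tissue, fewer cells of a type and less RNA per cell cannot be told apart.

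The 9 genes lie at 6 places in the genome, given here in the coordinates of the deposited table (mm10). Chrna5 (chromosome 9, 54980880 to 55007779, plus strand), Chrna3 (55011343 to 55026559, minus strand) and Chrnb4 (55028156 to 55048544, minus strand) stand next to each other, with gaps of 3563 and 1596 bases. Chrnb3 (chromosome 8, 27368711 to 27399730, plus strand) and Chrna6 (27403212 to 27413944, minus strand) are 3481 bases apart and meet tail to tail. Chrna2 is on chromosome 14 (66140960 to 66152948), Chrna4 on chromosome 2 (181022311 to 181039177), Chrnb2 on chromosome 3 (89753448 to 89764632) and Chrna7 on chromosome 7 (63098692 to 63212526). Only Chrnb3 had 2 transcripts in the table, and each of the others had 1. In RefSeq's GRCm38.p6 annotation Chrna5 reaches 1304 bases into Chrna3 on the other strand. The sources used here do not say if reads were counted by strand, so reads of the shared stretch may be credited to either gene.

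The 250 bases before the start used in the table are shown for the pair of highest level (Chrna4 and Chrnb2), for the gene with the largest log2 fold change (Chrna7) and for the one that stood lowest in ethanol relative to control (Chrna5). They come from RefSeq (GRCm38.p6), which held a window at the table's start for 5 of the 9 genes and one at a slightly different start for Chrna3. They are written 5′ to 3′ on the gene's strand. Capitals mark the GC box, GGGCGG or its complement.
Chrna4 (chr2:181039178-181039427, minus strand): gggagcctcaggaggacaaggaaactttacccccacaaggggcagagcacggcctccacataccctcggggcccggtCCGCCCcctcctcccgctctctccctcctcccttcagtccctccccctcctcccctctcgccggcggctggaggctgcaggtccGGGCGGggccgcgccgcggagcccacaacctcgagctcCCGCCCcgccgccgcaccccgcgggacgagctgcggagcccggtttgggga
Chrnb2 (chr3:89764633-89764882, minus strand): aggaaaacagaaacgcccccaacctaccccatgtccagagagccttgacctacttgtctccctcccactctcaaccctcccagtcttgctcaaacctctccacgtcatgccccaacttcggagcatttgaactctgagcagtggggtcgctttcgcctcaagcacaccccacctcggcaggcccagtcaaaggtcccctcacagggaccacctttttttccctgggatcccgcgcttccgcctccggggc
Chrna7 (chr7:63212527-63212776, minus strand): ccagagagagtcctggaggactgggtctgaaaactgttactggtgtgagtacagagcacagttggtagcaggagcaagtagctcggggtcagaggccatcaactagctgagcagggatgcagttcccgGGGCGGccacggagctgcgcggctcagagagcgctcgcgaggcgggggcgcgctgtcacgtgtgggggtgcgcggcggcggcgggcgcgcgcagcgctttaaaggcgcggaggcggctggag
Chrna5 (chr9:54980630-54980879, plus strand): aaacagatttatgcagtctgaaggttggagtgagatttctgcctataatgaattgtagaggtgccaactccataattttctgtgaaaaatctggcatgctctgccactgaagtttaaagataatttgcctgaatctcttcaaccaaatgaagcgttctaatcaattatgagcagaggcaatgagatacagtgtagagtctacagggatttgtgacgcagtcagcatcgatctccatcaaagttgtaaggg
The GC box was present 3 times before Chrna4, 1 time before Chrna7 and in neither of the other windows, against 32.7% of all 32851 RefSeq windows of this length. The other letters searched, on both strands, were TGACGTCA (a cAMP response element, 1.55% of windows), TTCAGCACC and GGACAGC (the left and right parts of the REST element, 0.301% and 5.28%) and GCGTGGGCG (an EGR1 site, which can overlap a GC box, 0.536%). None of these 4 was in the windows shown. GC content was 74.4% before Chrna4, 59.6% before Chrnb2, 67.2% before Chrna7 and 40.0% before Chrna5, with a median of 52.4% over all windows. A second RefSeq start of Chrna5, not used in the table, had 65.2% GC and 4 GC boxes.

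Depth ran from 35898026 to 67399599 estimated reads per library. In counts per 1e6 reads (CPM), 3 reads were worth 0.0445 to 0.0836 before the scaling used for the other CPM values. Striatal projection neuron genes were present in all 6 libraries, with Ppp1r1b at 486 to 1156 CPM and Drd1 at 26.9 to 58.8 CPM. Genes of midbrain dopamine neurons were present too, with Slc6a3, the dopamine transporter gene, at 27.2 to 160.2 CPM and the transcription factor gene Pitx3 at 0.438 to 2.86 CPM. Genes of cortical glutamatergic neurons summed to 331, 73.5 and 109.7 CPM in the controls and 33.8, 18.5 and 71.7 CPM in ethanol, with no overlap and Slc17a7, the vesicular glutamate transporter gene of the cortex, at a log2 fold change of -2.32. Control 3 stood apart with the choroid plexus gene Ttr at 394 CPM, against at most 4.63 CPM elsewhere. Of the thalamic genes listed, Prkcd was at 281 CPM in control 3, against at most 107 CPM elsewhere. Ramp3 and Tnnt1 were also highest in control 3, while Slc17a6 and Tcf7l2 were highest in ethanol 3, at 122 and 59.1 CPM. The levels of several of these markers move with the groups or with 1 library. The part of these markers in the subunit differences below was not tested. Ethanol 2 was the library with the lowest sum of 7 dopamine neuron genes and the highest sum of 10 projection neuron genes. No gene was called in the comparison of all genes with edgeR's quasi-likelihood test (0% of 15774, smallest adjusted p = 0.41). Leaving out ethanol 2 raised this to 201 genes higher and 10 lower in ethanol.

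Levels of different genes were compared per transcript length, in the deposited FPKM (fragments per kilobase per 1e6 fragments). Chrna4 and Chrnb2 stood at the top. Chrna4 had 12.4, 11.2 and 13.5 FPKM in control 1, control 2 and control 3, and 16.7, 7.29 and 12.3 FPKM in ethanol 1, ethanol 2 and ethanol 3. Chrnb2 had 10.5, 11.3 and 10.8 FPKM in the controls and 18.5, 11.7 and 15.4 FPKM in ethanol. The ranges of these levels overlapped, and each of the pair ranked first in some libraries. Chrna6 came next in all 6 libraries, at 1.40 to 5.42 FPKM with a median of 3.76 FPKM, below the whole range of Chrnb2. Chrna7 (median 1.15 FPKM), Chrnb3 (1.08 FPKM) and Chrna3 (0.922 FPKM) followed, with ranges that overlapped each other. Chrna2 had 0.231 to 0.589 FPKM, below every Chrna3 value, and overlapped Chrna5 at 0.0953 to 0.571 FPKM. Chrnb4 was lowest by its median, at 0.0602 to 0.231 FPKM, and was counted from 10 to 67 reads a library.

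As a share of the summed FPKM of the 9 genes, Chrna4 took 39.3%, 37.4% and 43.5% in the controls and 35.5%, 32.3% and 33.8% in ethanol. Chrnb2 took 33.4%, 38.0% and 34.7% in the controls and 39.4%, 51.7% and 42.3% in ethanol. The shares of the groups did not overlap for either gene, with Chrna4 below and Chrnb2 above in ethanol. The FPKM ratio of Chrna4 to Chrnb2 was 1.18, 0.985 and 1.25 in the controls and 0.900, 0.624 and 0.799 in ethanol. It was looked at after the data were seen and not tested, as were other ratios. Those of Chrna6 to Chrnb3, Chrna5 to Chrna4 and summed alpha to summed beta genes did not overlap between the groups either. Those of Chrna3 to Chrnb4, Chrna6 to Chrna4 and Chrna7 to Chrna4 overlapped. Chrnb3 differed without overlap in its share, though not in its CPM, at 3.47% to 4.84% in control and 1.13% to 2.86% in ethanol, and Chrna5 stood at 0.828% to 1.91% and 0.422% to 0.589%. With 3 against 3 libraries, a lack of overlap by itself gives p = 0.1 in the two-sided exact permutation test, the smallest it allows. The test therefore adds nothing to the descriptions of these 4 shares. The shares are also linked, since they sum to the whole. The sum itself was 29.8 to 31.5 FPKM in control and 47.0, 22.6 and 36.5 FPKM in ethanol, so ethanol 1 and ethanol 2 lay on either side of all controls.

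**Figure D1:**
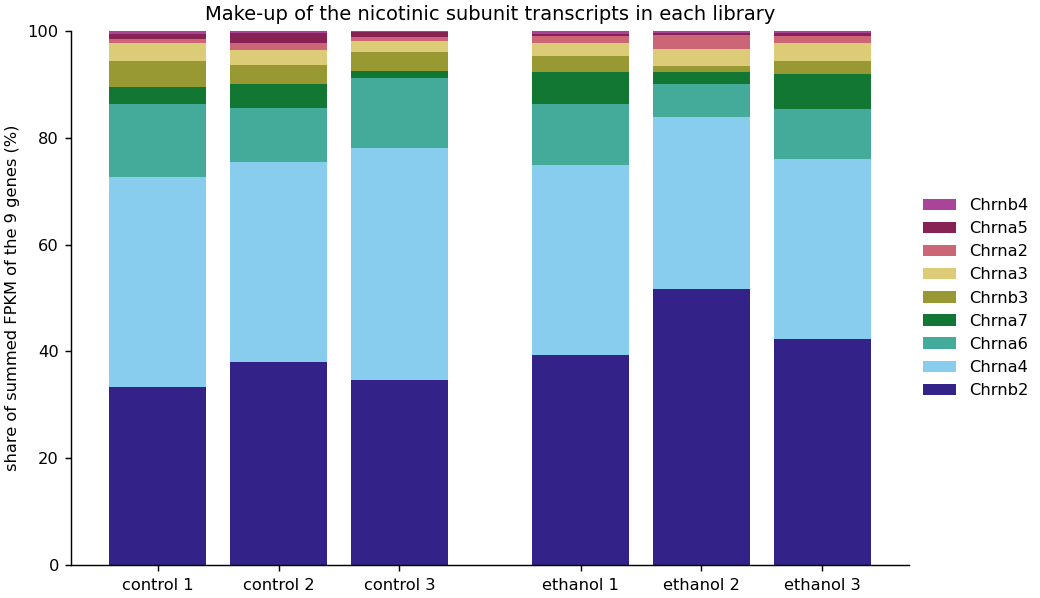
Stacked bars give the share of each subunit gene in the summed FPKM of the 9 genes (percent, y axis) for each of the 6 libraries (x axis). Chrnb2 (lowest block) takes 33.4% to 38.0% in control and 39.4% to 51.7% in ethanol, and Chrna4 above it 37.4% to 43.5% and 32.3% to 35.5%.

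The comparison of ethanol with control asked whether subunit transcripts differed between the groups after the drinking period. All 9 genes passed the low-count filter, and 0 of 9 were called by edgeR, DESeq2 or limma-voom. At an unadjusted p under 0.05, edgeR had 2 of 9 genes higher in ethanol, Chrnb2 and Chrna2, against 5.31% of all genes, and 0 lower against 5.34%. The 3 ethanol libraries lay above the 3 controls in the CPM of these 2 genes (9.35% of all genes) and below them in Chrna5 (8.41% of all genes), so that 3 of 9 did not overlap in either direction against 17.8% of all genes. Of the 9 genes 6 had a log2 fold change above 0, as did 52.7% of all genes, and the median was 0.43 against 0.02 over all genes. Without ethanol 1 the median of the 9 genes was 0.026, beside 0.019 over all genes in that fit, so it rests on this library. In all genes together, edgeR had 1681 at an unadjusted p under 0.05 (10.7%), limma-voom 1751 with 0 called, and DESeq2 1923 with 144 called (0.913%).

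Chrnb2, the partner subunit of most heteromeric receptors in the brain, had 66.2, 70.7 and 68.4 CPM in the controls and 132, 79.6 and 99.9 CPM in ethanol. The controls were close together, and every ethanol library was higher, ethanol 1 most of all. The means were 68.4 ± 2.24 and 103.7 ± 26.2 CPM (SD, n = 3 each). The log2 fold change was 0.60 (SE 0.20, unadjusted p = 0.0136, adjusted p = 0.44 by edgeR). It was 0.39 without ethanol 1, and 0.75 without ethanol 2 (SE 0.15, adjusted p = 0.0526), in a fit where 22.9% of all genes had an unadjusted p under 0.05. Of the listed marker and pathway genes, Adcy5, a striatal adenylyl cyclase gene, was nearest to Chrnb2 in its course over the libraries (rank 38 of 15773 genes). The 10 projection neuron genes summed to 1981, 2195 and 1830.4 CPM in the controls and 2363, 3838 and 1934 CPM in ethanol, where ethanol 2 and not ethanol 1 was highest. As a list they were not near Chrnb2, with a median rank of 9286.5. The nearest list by median rank was that of 5 astrocyte genes (2127). They summed to 735, 998 and 688 CPM in the controls and 1229, 881 and 1089.9 CPM in ethanol. Their sum was highest in ethanol 1, as Chrnb2 was, but control 2 lay above ethanol 2. Of these genes 4 had a log2 fold change above 0, while Aqp4 was at -0.30 and highest in control 2. The part of cell make-up in the Chrnb2 difference was not tested.

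Chrna4 had 64.2, 57.4 and 70.7 CPM in the controls and 97.6, 40.95 and 65.8 CPM in ethanol. Ethanol 1 was highest and ethanol 2 lowest of the 6, with the controls between them. The log2 fold change was 0.09 (SE 0.28, adjusted p = 0.93 by edgeR). Its sign was not fixed, at -0.26 without ethanol 1 and -0.10 on the log2(FPKM + 0.1) scale. Chrna5, which joins Chrna4 and Chrnb2 in some receptors, had 0.955, 1.82 and 0.848 CPM in the controls and 0.813, 0.341 and 0.725 CPM in ethanol. Control 2 was highest and ethanol 2 lowest. The groups did not overlap, but control 3 and ethanol 1 were apart by less than counting error, with exact Poisson 95% intervals of 0.576 to 1.20 and 0.605 to 1.07 CPM. The log2 fold change of Chrna5 was -0.94 (SE 0.53, adjusted p = 0.54 by edgeR) and -0.52 without control 2. All 8 meningeal fibroblast genes listed also had a log2 fold change below 0, and their sum was 55.2, 96.5 and 58.9 CPM in the controls and 44.1 to 52.3 CPM in ethanol, highest in control 2 as Chrna5 was. Their part in the Chrna5 values was not tested.

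Chrna2, a subunit gene with restricted expression in the rodent brain, had 1.08, 1.64 and 0.984 CPM in the controls and 2.60, 2.63 and 1.96 CPM in ethanol, from 36 to 163 reads. Every ethanol library was above every control. The log2 fold change was 0.96 (SE 0.35, unadjusted p = 0.0227, adjusted p = 0.44 by edgeR), and it lay between 0.82 and 1.22 over the fits that left out 1 library. Chrna7 had 2.45, 3.20 and 1.01 CPM in the controls and 7.84, 1.31 and 5.98 CPM in ethanol. Ethanol 1 and ethanol 3 were above all controls, while ethanol 2 lay among them. Its log2 fold change of 1.19 was the largest of the 9 genes (SE 0.60, adjusted p = 0.50 by edgeR). It was 0.71 without ethanol 1 and 1.62 without ethanol 2 (adjusted p = 0.0811).

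**Figure D2:**
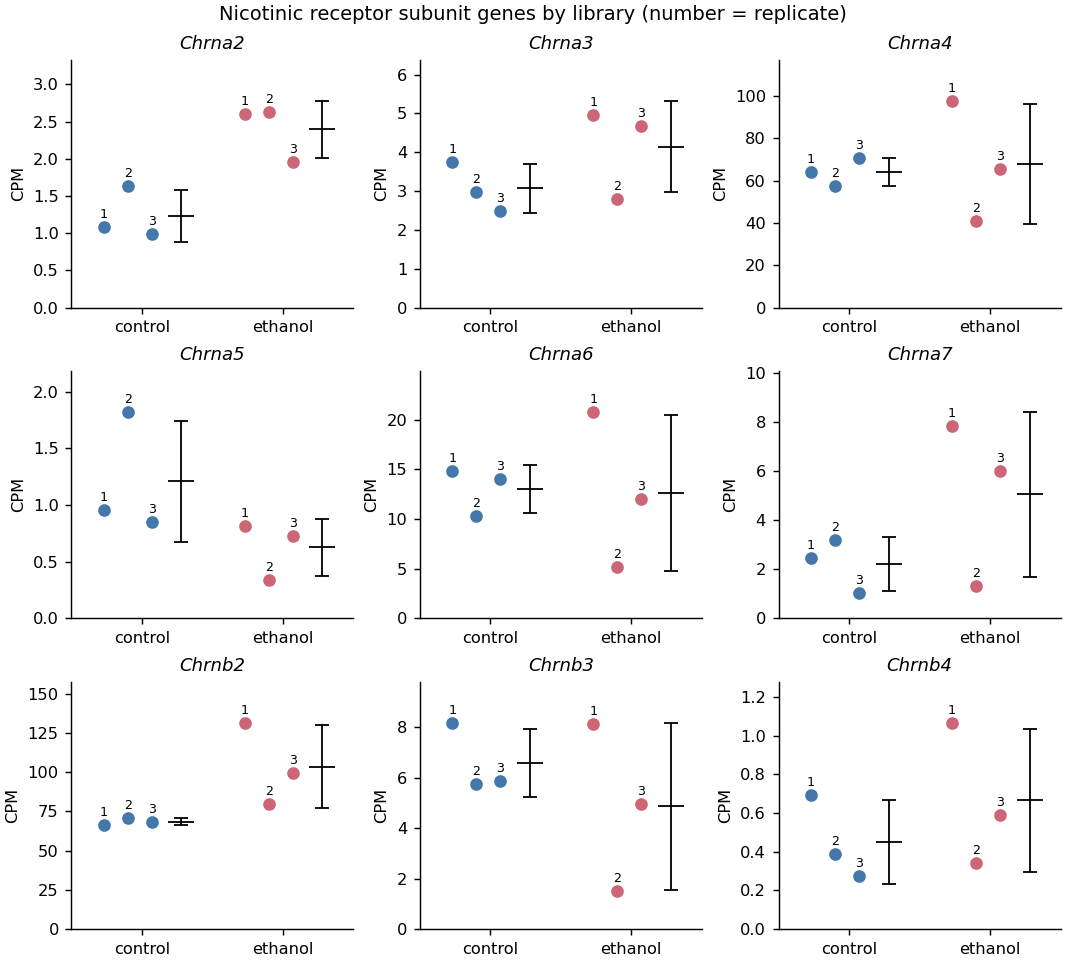
Each panel shows 1 subunit gene in CPM (linear y axis) for 3 control (blue) and 3 ethanol (red) libraries, numbered by replicate, with the mean and SD beside them. Groups are apart in Chrnb2, Chrna2 and Chrna5, and ethanol 2 is the lowest library for Chrna4, Chrna5, Chrna6 and Chrnb3.

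Chrna3 and Chrnb4 encode subunits best known from autonomic ganglia and the medial habenula. Chrna3 had 3.75, 2.96 and 2.49 CPM in the controls and 4.95, 2.80 and 4.67 CPM in ethanol, with overlapping groups and a log2 fold change of 0.43 (SE 0.31, adjusted p = 0.62 by edgeR). Chrnb4 had 0.694, 0.390 and 0.273 CPM in the controls and 1.07, 0.341 and 0.590 CPM in ethanol. Chrnb4 had a log2 fold change of 0.55 (SE 0.63, adjusted p = 0.77), 1.01 without control 1 and 0.03 without ethanol 1. Both neighbours were highest in ethanol 1. Of the habenula markers, Pou4f1 was at 0 reads in control 2 and ethanol 2 and at most 0.537 CPM in the others. Gpr151 was at 0.607 to 0.702 CPM in control and 0.901 to 1.45 CPM in ethanol, higher in every ethanol library (9.35% of all genes). The other 3 were Tac2 at 59.3 to 113 CPM, Nwd2 at 3.55 to 11.6 CPM and Gng8 at 2.70 to 5.28 CPM, with overlapping groups. The part of habenular RNA in the Chrna3 and Chrnb4 values was not tested.

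Chrna6 and Chrnb3 varied together across the libraries, but not fully in step. Their FPKM ratio was 2.83 to 3.79 in control and 3.83 to 5.46 in ethanol, and it was not tested. Chrna6 had 14.8, 10.3 and 14.03 CPM in the controls and 20.8, 5.14 and 11.995 CPM in ethanol. Chrnb3 had 8.16, 5.74 and 5.85 CPM in the controls and 8.14, 1.51 and 4.94 CPM in ethanol. Ethanol 2 was far below the other libraries for both genes, while ethanol 1 was above all controls for Chrna6 and level with the highest control for Chrnb3. The log2 fold changes were -0.04 for Chrna6 (SE 0.41, adjusted p = 0.98) and -0.43 for Chrnb3 (SE 0.48, adjusted p = 0.76, both by edgeR). Without ethanol 2 they were 0.32 and -0.02, and without ethanol 1 they were -0.61 and -1.03. For both genes the spread between ethanol libraries was larger than the difference between the groups.

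The reads of Chrnb3 were split between its 2 transcripts unevenly. Variant 2 took 57.7% of them in control 1, 15.4% in control 3 and 43.5% in ethanol 2, and had 0 reads in the other 3 libraries. The transcripts are 4544 and 4589 bases long, and such a split is an estimate of the authors' counting tool. Variant 1 alone had a log2 fold change of 0.0020 and variant 2 alone one of -3.10, against -0.43 for the gene.

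Likeness between genes was measured as the root mean square difference of their log2 CPM, each centred on its mean, over the 6 libraries. Among 12646 named genes with a mean log2 CPM of at least 1, the 3 nearest to Chrna6 were Th, the tyrosine hydroxylase gene of dopamine synthesis (0.17), Adcy7 (0.19) and Ret, a receptor gene for GDNF-family ligands (0.19). The 3 nearest to Chrnb3 were Gucy2c, a guanylate cyclase receptor gene (0.11), Slc6a3 (0.15) and En1, a transcription factor gene of midbrain neurons (0.18). All 7 dopamine neuron genes listed were near Chrnb3, with ranks of 2 to 170 and a median of 9 among 15773 genes. For Chrna6 their ranks were 1 to 1608 with a median of 51. These ranks were looked at after the nearest genes had been seen, and they describe 6 libraries with no test.

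Th followed the same course, with 119, 71.9 and 87.3 CPM in the controls and 121, 35.0 and 94.0 CPM in ethanol. Slc6a3 had 129.8, 92.6 and 119 CPM in the controls and 160.2, 27.2 and 76.0 CPM in ethanol. En1 had 7.20, 4.16 and 5.17 CPM in the controls and 6.31, 1.61 and 4.59 CPM in ethanol. Each of these genes was lowest in ethanol 2, as were Chrna6 and Chrnb3. The summed level of the 7 genes was 259 to 368 CPM in control and 107 to 398 CPM in ethanol, with a log2 fold change below 0 for all 7 and none called. Taking deviations from the group means left the median rank at 54 for Chrna6 and moved it to 111 for Chrnb3. Without ethanol 2 the median ranks were 982 and 306, and without ethanol 1 they were 877 and 89, so the likeness rests in large part on these libraries. The part of midbrain dopamine neuron RNA in the Chrna6 and Chrnb3 values was not tested.

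**Figure D3:**
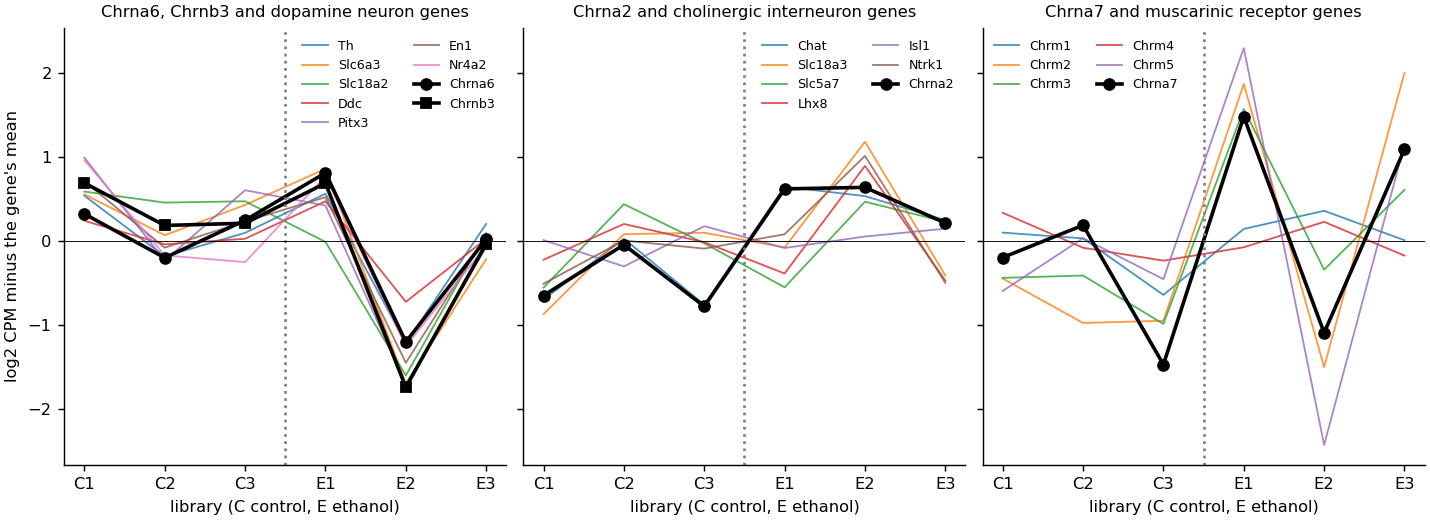
Lines show log2 CPM minus the mean of the gene (y axis) over 3 control (C1 to C3) and 3 ethanol (E1 to E3) libraries, with subunit genes in black. Chrna6, Chrnb3 and the dopamine neuron genes share a minimum in E2. Chrna2 lies along Chat, closer than counting error resolves. Chrna7 is high in E1 and E3 with Chrm2, Chrm3 and Chrm5.

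The gene nearest to Chrna2 was Chat, the enzyme gene of acetylcholine synthesis, with a root mean square difference of 0.06, followed by Zwint (0.15) and the activity-regulated transcription factor gene Egr3 (0.17). Counts of Chrna2 were low, with an exact Poisson 95% interval of 0.689 to 1.36 CPM in control 3. A difference of 0.06 is therefore smaller than counting error resolves, and Chat was the nearest of 12646 genes searched. Chat had 5.68, 9.38 and 5.44 CPM in the controls and 14.4, 13.3 and 10.9 CPM in ethanol. All ethanol libraries were above all controls, as in 9.35% of all genes. The log2 fold change of Chat was 0.92 (SE 0.26, unadjusted p = 0.00535, adjusted p = 0.42 by edgeR). Other genes of cholinergic interneurons took another course. Slc18a3, the vesicular acetylcholine transporter gene, had 4.91, 9.51 and 9.62 CPM in the controls and 8.52, 20.4 and 6.76 CPM in ethanol, while Slc5a7, the choline transporter gene, differed by 0.10 on the log2 scale. All 6 interneuron genes listed had a log2 fold change above 0 and none was called. Their sum was 47.0 to 64.9 CPM in control and 58.6 to 99.8 CPM in ethanol, highest in ethanol 2, and their median rank to Chrna2 was 6960.5 of 15773. The lists nearest to Chrna2 by median rank were those of 5 astrocyte genes (671), 5 microglial genes (789) and 10 projection neuron genes (802.5, with Drd2 at rank 40 and Drd1 at rank 63). Members of each list differed. In the astrocyte list Aqp4 had a log2 fold change of -0.30, and in the microglial list P2ry12 had one of -0.36. The other 4 genes of each of these lists were above 0. In the projection neuron list the log2 fold changes were -0.05 for Tac1, 0.11 for Pdyn and 0.15 for Rgs9, all with overlapping groups. The microglial genes summed to 253 to 318 CPM in control and 275 to 402 CPM in ethanol. The part of any of these cell types in the Chrna2 values was not tested.

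The genes nearest to Chrna7 were Parm1 (0.22), Nrip1 (0.26) and Megf9 (0.26). Of the muscarinic receptors, the other class of acetylcholine receptor, 5 of 5 passed the filter and edgeR called 0, with 2 at an unadjusted p under 0.05, both higher (5.31% of all genes). Their median log2 fold change was 1.41, and 0.57 without ethanol 1. Chrm3 had 7.24, 7.38 and 4.95 CPM in the controls and 29.2, 7.74 and 14.97 CPM in ethanol. Chrm3 had a log2 fold change of 1.41 (SE 0.42). Chrm2, an inhibitory receptor gene, had 1.16, 0.806 and 0.820 CPM in the controls and 5.80, 0.560 and 6.36 CPM in ethanol. For Chrm2 it was 2.18 (SE 0.71). Chrm5 had 0.521 to 0.806 CPM in control and 3.87, 0.146 and 1.74 CPM in ethanol. In these 3 genes, as in Chrna7, ethanol 1 and ethanol 3 stood above the controls. The other muscarinic genes, named to complete the list after their values were seen, took another course. Chrm1 was highest in ethanol 2 (74.1, 70.6 and 44.3 CPM in the controls, 76.4, 88.7 and 69.6 CPM in ethanol), and Chrm4 was highest in control 1 with a log2 fold change of -0.03. The 4 septal genes listed summed to 31.7 to 47.9 CPM in control and 59.6, 33.7 and 83.2 CPM in ethanol, also high in ethanol 1 and ethanol 3. Of these sums Zic1 alone had 40.4, 18.7 and 54.4 CPM in ethanol, while Gbx1 was highest in ethanol 2 at 2.65 CPM. By median rank to Chrna7 the muscarinic genes were nearest (460), followed by the 5 astrocyte genes (2110) and the septal genes (3098.5). The part of septal or astrocyte RNA in these values was not tested.

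Among 11 chaperones and Ly6-type modulators of nicotinic receptors, edgeR called 0 and DESeq2 called 1, Vsnl1, against 0.913% of all genes. By edgeR 1 was lower at an unadjusted p under 0.05 (5.34% of all genes), 8 had a log2 fold change above 0, and the median was 0.02, with -0.0090 to 0.098 over the fits without 1 library. Vsnl1, a calcium sensor gene whose product raises surface levels of receptors with the Chrna4 subunit, had 704, 739.9 and 763 CPM in the controls and 490.5, 465 and 521 CPM in ethanol. All ethanol libraries were below all controls, as in 8.41% of all genes. The log2 fold change of Vsnl1 was -0.58 (SE 0.14, unadjusted p = 0.00242, adjusted p = 0.42 by edgeR, adjusted p = 0.0199 by DESeq2). Ric3 and Tmem35a, which help Chrna7 receptors assemble, stood at 0.02 (SE 0.16) and 0.19 (SE 0.15) on the same log2 scale. Lynx1, a membrane-bound brake on nicotinic receptors, had 365 to 425 CPM in control and 638, 348 and 399.5 CPM in ethanol. Ly6e had a log2 fold change of 0.30 (SE 0.16) with every ethanol library above every control (9.35% of all genes), and Ly6g6e one of -0.91 (SE 0.58).

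Of 7 genes that make, carry or break down acetylcholine, edgeR called 0, 6 had a log2 fold change above 0, and the median was 0.16. Leaving out 1 library moved that median to 0.017 without ethanol 1, 0.085 without control 1, 0.31 without control 2 and 0.33 without ethanol 3. Chat was at an unadjusted p under 0.05 in the higher direction (5.31% of all genes) and Bche, the butyrylcholinesterase gene, in the lower one (5.34%). Bche had 6.01, 6.76 and 6.64 CPM in the controls and 2.87, 4.28 and 5.15 CPM in ethanol. Bche differed by -0.66 on the log2 scale (SE 0.27). Ache, the acetylcholinesterase gene, had 245 to 259.7 CPM in control and 334, 261 and 243 CPM in ethanol. Of the 7 muscle and cochlear subunit genes only Chrna10 and Chrnb1 passed the filter, both at 1.06 CPM or less in every library. No reads of Chrnd or Chrng were counted in any of the 6 libraries, which by counting error alone allows levels of up to 0.0445 to 0.0836 CPM before scaling. Control 2 had 0 reads for all 7 of these genes. It had reads in 15924 genes, against at least 17096 in every other library, so its floor may be higher.

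**Figure D4:**
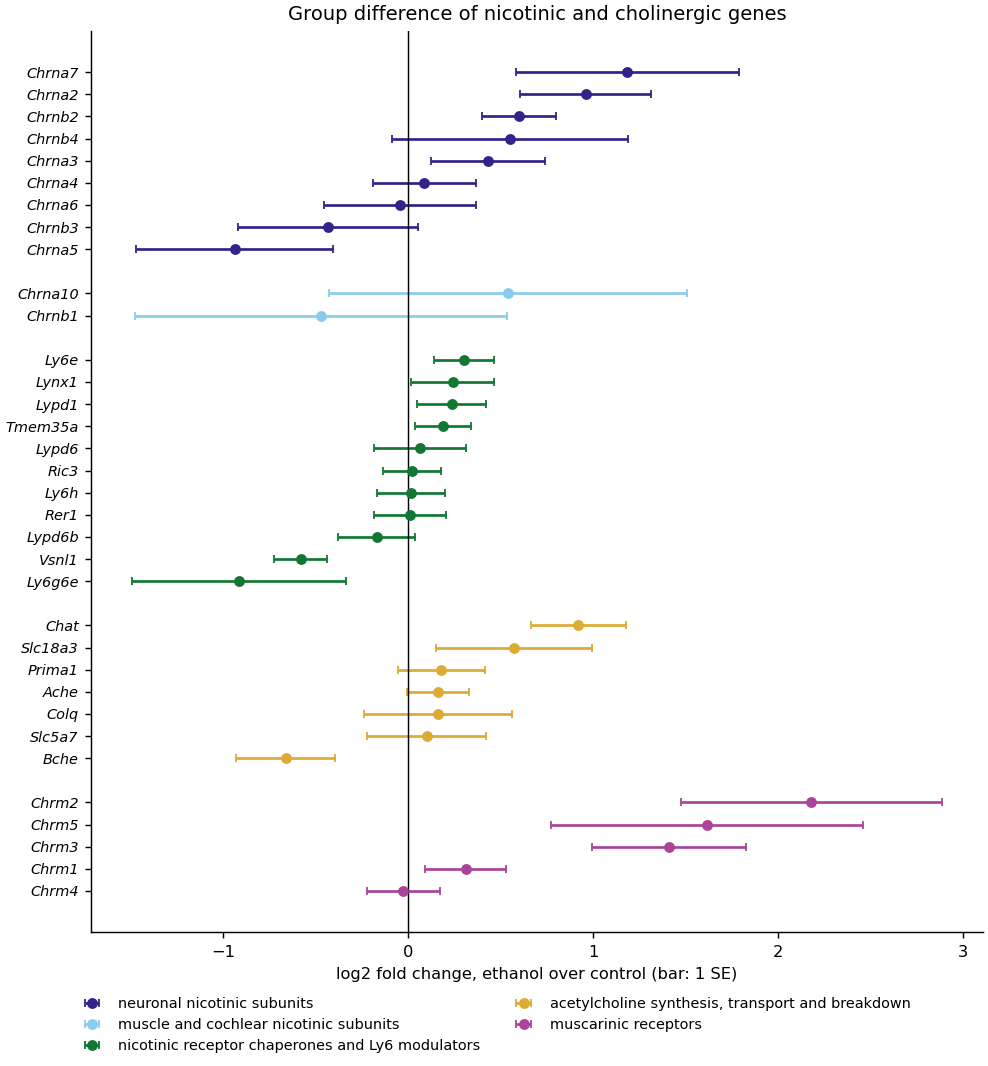
Points are log2 fold changes of ethanol over control with 1 SE for the tested nicotinic subunit genes and 4 lists of related genes, by edgeR over 6 libraries. Chrna7, Chrna2 and Chrnb2 lead the neuronal subunits at 1.19, 0.96 and 0.60, and Chrm2 at 2.18 is the highest of all.

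**Figure D5:**
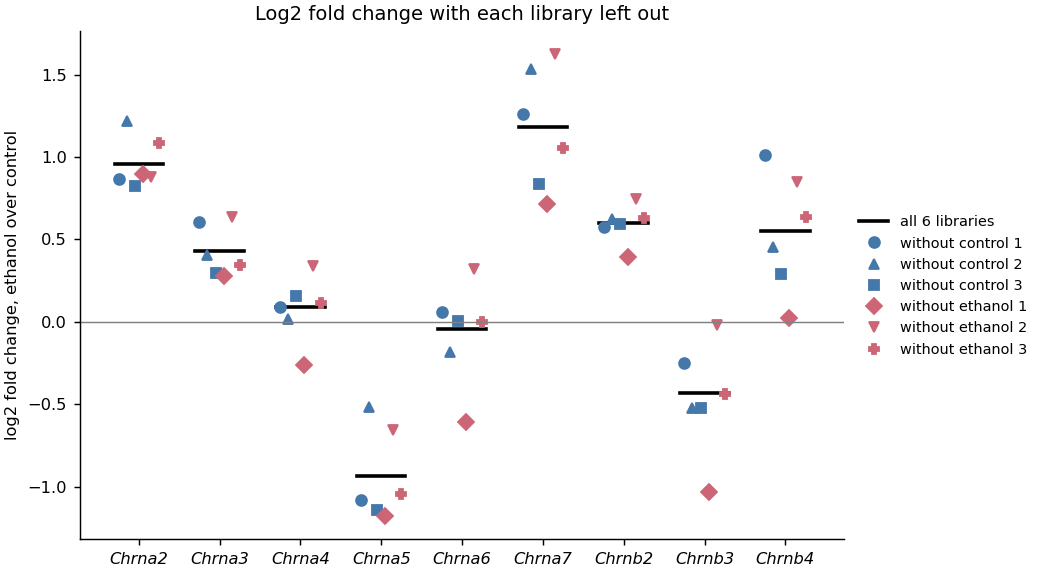
Log2 fold changes of the 9 subunit genes (y axis) are shown with all 6 libraries (black bars) and with each library left out (symbols). Chrna2, Chrna3, Chrna7, Chrnb2 and Chrnb4 stay above 0 and Chrna5 and Chrnb3 stay below 0 in all 6 such fits, while Chrna4 and Chrna6 change sign.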

How the data were processed

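Messenger RNA sequencing of 3 control and 3 ethanol libraries was used. The authors deposited 1 table of RefSeq transcripts with an estimated count and an FPKM value per library, as its headers name them. Build mm10 and the tool bcl2fastq come from the submitters' processing notes. Which aligner and counter were used is not given in the sources used here. Each deposited count equalled FPKM times length times 1 library size, rounded up, within 0.05 reads, so the counts are estimates, and reads of related or overlapping genes may be divided wrongly. The 36780 transcripts were summed to 24532 genes by gene identifier and rounded to whole numbers.

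Genes were kept by filterByExpr (minimum count 10), scaled with TMM and tested two-sided with edgeR 4.0.16 (glmQLFit, glmQLFTest) in R 4.3.3. The design held the group alone, with Benjamini-Hochberg adjustment over all 15774 genes at 0.05. SE is the log2 fold change over the square root of F. CPM are per 1e6 TMM-scaled reads. DESeq2 1.42.0, limma 3.58.1 (voom, and log2 FPKM with pseudocounts of 0.1 and 1), other scalings, no filter, a replicate block and fits without each library were alternatives. On 3 simulated sets of 15774 genes for this comparison, edgeR recovered 86.0% of 4-fold, 34.0% of 2-fold and 2.67% of 1.5-fold increases. Of its calls 10.7% were false. Named genes were the 9 subunits, the 3 smallest p per related list, defining genes, and the 3 nearest genes of each subunit whose log2 CPM spanned at least 1. The members and lists were chosen with earlier results of these data known. Intervals and floors cover counting error only. Figures were drawn with matplotlib 3.10.9.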

Additional observations from a re-analysis of the deposited data

How the results depend on the processing

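The count of called genes was 0 higher and 0 lower in edgeR, and 51 higher and 93 lower in DESeq2. Over the fits that left out 1 library it ranged from 0 to 201 higher (1 without control 1, 201 without ethanol 2) and from 0 to 10 lower (10 without ethanol 2). The count of subunit genes at an unadjusted p under 0.05 ranged from 1 to 3 higher over those fits, with 1 without control 1, control 3 or ethanol 1 (3.25%, 1.73% and 2.14% of all genes higher at that p) and 3 without ethanol 2 (12.7%). Chrna4 turned to -0.26 without ethanol 1, -0.10 with FPKM and a pseudocount of 0.1, and -0.090 with a pseudocount of 1, and ranged from -0.26 to 0.34 over the fits without 1 library. Chrna6 turned to 0.06 without control 1, 0.0028 without control 3 and 0.32 without ethanol 2, with a range of -0.61 to 0.32, and Chrnb3 to 0.0020 when its variant 1 was tested alone. The cause was not tested. The other 6 subunit genes kept their sign in all 15 alternatives each, and no subunit gene was called in any. The deviations of same-numbered libraries from their group means correlated at 0.15, -0.03 and -0.02. These values cannot tell whether replicate numbers mark shared animals or batches, since other differences between libraries enter them too. With the replicate block, 0 genes were called and the log2 fold change of Chrnb2 was 0.57 (SE 0.21). In that fit Chrna6 was at -0.23 (SE 0.29) and Chrnb3 at -0.68 (SE 0.38). Chrnb4, Chrna5 and Chrna2 rest on as few as 10, 14 and 36 reads in a library, which limits what can be seen of them.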

Other observations

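The nearest genes of 3 further subunits, chosen by the same rule, were of mixed kinds. Those of Chrna4 were Atp10b (0.05), Gli2 (0.07) and Dscaml1 (0.08, root mean square difference of centred log2 CPM over 6 libraries). Those of Chrna5 were the transcription factor genes Tal1 (0.21) and Nhlh2 (0.25) and the adhesion gene Ceacam1 (0.23). Those of Chrnb4 were the potassium channel gene Kcnh1 (0.16), Ppara (0.17) and Cabp7 (0.18). Among the 9 subunit genes themselves, the nearest pair was Chrna3 and Chrnb2 at 0.24, followed by Chrna4 and Chrna6 at 0.28 and by the neighbours Chrna3 and Chrnb4 and Chrnb3 and Chrna6 at 0.31 each. The farthest pair was Chrna2 and Chrnb3 at 1.17. These values describe the 6 libraries and were not tested.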
